A study of Mus musculus with 30 samples.

Results

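The molecular clock has activators, and Clock and Npas2 are 2 of them: each pairs with Arntl (Bmal1) and the pair binds E-boxes in DNA. Nr1d1 and Nr1d2 encode the nuclear receptors REV-ERB alpha and beta, which repress Arntl and other genes through the element that ROR receptors activate. Dbp, Tef and Hlf are PAR bZIP factors, activators that bind D-boxes, and Nfil3 (E4bp4) is a repressor of the same sites. In liver, fat and muscle this circuit ties metabolism to the daily cycle of light and feeding. The 8 genes Clock, Npas2, Nr1d1, Nr1d2, Dbp, Tef, Hlf and Nfil3 were followed here on all probe sets annotated to them, 10 of 28815 on the array. Of the 8 genes, 6 have a probe set annotated to them alone. Nr1d1 lies on 2 probe sets that are also annotated to Thra, the thyroid hormone receptor alpha gene, which overlaps it by 1075 bases. Dbp lies on 1 that is also annotated to Sphk2, a sphingosine kinase gene, which overlaps it by 741 bases. Their values are given as those of shared probe sets and could not be assigned to either gene, and counts of members cover the 6 genes. Nr1d2 has a second probe set with levels from 2.65 to 3.28 on all arrays, under the array medians of 4.91 to 5.16, which is not described further.

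The samples were epididymal white adipose tissue (WAT, the fat pad beside the testis), liver (LIV) and skeletal muscle of the thigh (SM) of male C57Bl/6J mice aged 10 to 12 weeks, either without food for 24 h or with free access to chow. Food was withdrawn in the morning, after the lights came on, and each tissue was taken at 1 time of day, so a change of level and a shift of the daily rhythm cannot be told apart. The 6 groups held 5 arrays each, 30 in all, and 28 entered the fits: fed LIV 4 and fasted SM 5 were left out. The study's text names fasted SM 1 in place of fasted SM 5, and the fit without that array was an alternative. By the same text, the RNA came from 5 fasted and 5 control mice, so tissues of the same diet share mice. The main fit treated all arrays as independent. An alternative took arrays of the same diet and number as the same mouse, a random block. Levels are log2 values of Affymetrix Mouse Gene 1.1 ST arrays, a change is fasted minus fed on that scale, and a difference of 1 stands for a doubling. To be called, a gene needed at least a 1.3-fold change and an adjusted p below 0.05 (limma, Benjamini-Hochberg over all probe sets). In whole tissue, fewer cells of a type and less RNA per cell cannot be told apart.

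Tissue markers followed the labels. The mean of 9 adipocyte markers was 11.2 to 11.9 in WAT against 5.37 to 5.76 in LIV, that of 9 hepatocyte markers 12.2 to 12.3 in LIV against at most 4.47 in WAT and 5.13 in SM, and that of 12 muscle fibre markers 12.5 to 12.6 in SM. Adipocyte markers reached 7.90 to 9.81 in SM, where 3 of 9 fell. Slow-fibre markers ranged from 5.39 to 10.2 in fed SM and from 8.34 to 9.86 in fasted SM. Fasted SM 5, which was left out, had a mean of 8.37 for 8 lymphocyte markers, against at most 4.34 in other SM arrays. Of 11 macrophage markers, 2 rose and 1 fell in WAT, 4 fell in LIV and 2 rose in SM. In WAT 2 of 9 adipocyte markers fell and 2 of 12 muscle fibre and 1 of 9 hepatocyte markers rose, and in LIV 1 of 9 adipocyte markers rose. The part of these differences in the results of the 3 tissues was not tested.

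In fed mice the 6 genes and the shared probe sets did not all have the same tissue profile. Nr1d2, Tef and the Dbp/Sphk2 probe set were highest in SM, Hlf and Nfil3 in LIV, Clock in WAT, and the Nr1d1/Thra probe sets in WAT and SM. Of the 6 genes, 3 differed between fed WAT and fed LIV, where 44.4% of all genes did, 6 between WAT and SM (47.2%) and 6 between SM and LIV (47.9%).

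Among these genes Clock had the narrowest span between tissues, at 9.73 ± 0.06 (SD, n = 5) in WAT, 9.55 ± 0.04 (n = 4) in LIV and 9.07 ± 0.08 (n = 5) in SM. WAT exceeded LIV by 0.19, short of 1.3-fold, and SM by 0.66 (limma adjusted p = 2.99e-12). Npas2, a paralog of Clock, was at 7.87 ± 0.36 in WAT and 7.86 ± 0.44 in LIV, which did not differ beyond their spread, and at 6.59 ± 0.19 in SM. Nr1d2 was at 9.42 ± 0.07 in SM, 8.61 ± 0.09 in LIV and 7.96 ± 0.30 in WAT, and all neighbours in this order differed. Tef stood at 9.03 ± 0.09 in SM, 7.34 ± 0.28 in WAT and 7.32 ± 0.24 in LIV, and the last 2 did not differ beyond their spread. Hlf followed the order LIV (8.24 ± 0.21), SM (7.36 ± 0.18) and WAT (6.39 ± 0.29), and Nfil3 the same order with 7.69 ± 0.19, 7.05 ± 0.20 and 5.76 ± 0.22. The Dbp/Sphk2 probe set measured 8.24 ± 0.16 in SM, 6.55 ± 0.44 in WAT and 6.16 ± 0.69 in LIV, where WAT and LIV differed by 0.39 (adjusted p = 0.248). The probe set annotated to Sphk2 alone was highest in LIV, at 8.73 ± 0.15, and at 7.41 ± 0.07 in SM. Of the Nr1d1/Thra probe sets, 10390691 was at 10.97 ± 0.24 in WAT, 10.88 ± 0.10 in SM and 9.87 ± 0.35 in LIV, and 10381006 at 10.37, 10.32 and 8.64. On both, WAT and SM did not differ beyond their spread.

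**Figure D1:**
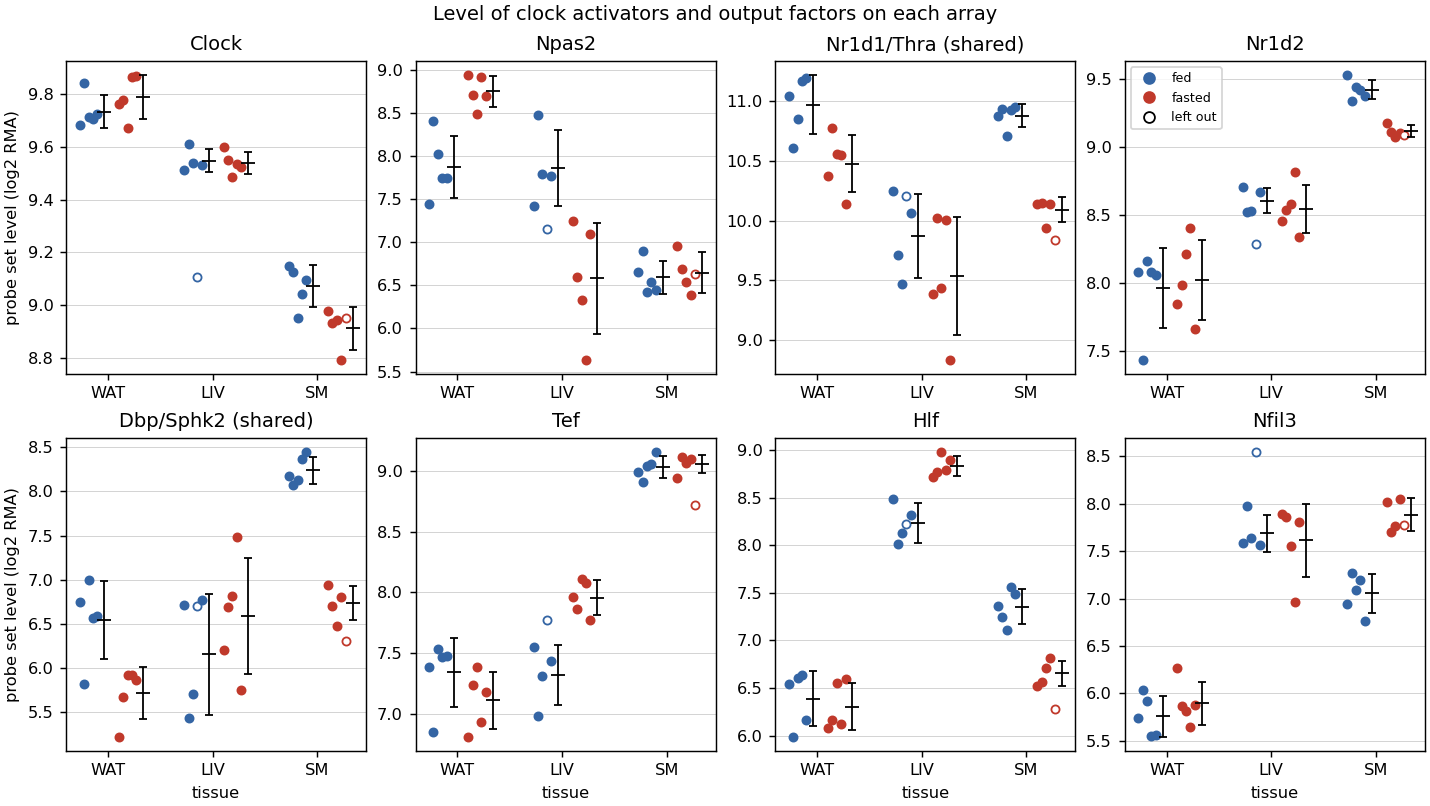
Level (log2 RMA value, y axis) of 6 genes and 2 shared probe sets in WAT, LIV and SM. Each point is 1 array, fed in blue and fasted in red, open where it was left out, with the mean and SD of the arrays used in black. Npas2 rose in WAT and fell in LIV, and Nfil3 rose and Hlf fell in SM. In these cases the fed and fasted arrays used do not overlap, but nor do they for Nr1d2 in SM, which was not called. With the left-out fed LIV array, the Npas2 groups overlap in LIV. How often groups do not overlap over all genes was not counted.

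The promoter windows of the 8 genes were searched on both strands for the elements these factors bind. The 11 windows (250 bases before to 50 after a transcript start, RefSeq, GRCm38.p6) include more than 1 start for Clock and Tef. Motifs were the E-box (CACGTG, in 7.15% of all 32851 windows), its variant CACGTT (4.68%), the D-box (TTATGTAA or TTACGTAA, 1.06%) and the ROR and REV-ERB core site (TAGGTCA or TGGGTCA, 6.45%). Both Tef windows held an E-box, whose first base lies 127 and 138 bases before the start. Nr1d1 held the E-box variant from 28 bases before it and Nfil3 the core site from 12 bases before it, each read on the opposite strand. No member window held a D-box. A match is a description of letters only. The 250 bases before the start are shown for these 4 windows because the elements in capitals belong to the circuit, 5′ to 3′.
Tef first start, chr15:81802423-81802672, forward strand: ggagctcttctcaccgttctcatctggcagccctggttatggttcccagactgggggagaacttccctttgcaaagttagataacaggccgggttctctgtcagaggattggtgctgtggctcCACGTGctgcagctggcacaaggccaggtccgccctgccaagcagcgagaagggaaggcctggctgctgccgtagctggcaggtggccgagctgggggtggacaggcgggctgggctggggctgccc
Tef second start, chr15:81811164-81811413, forward strand: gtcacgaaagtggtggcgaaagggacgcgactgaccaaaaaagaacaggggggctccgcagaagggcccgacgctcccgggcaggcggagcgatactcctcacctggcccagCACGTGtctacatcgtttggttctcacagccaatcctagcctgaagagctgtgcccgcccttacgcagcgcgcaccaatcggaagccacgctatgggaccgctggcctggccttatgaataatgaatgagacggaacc
Nr1d1, chr11:98775378-98775627, reverse strand: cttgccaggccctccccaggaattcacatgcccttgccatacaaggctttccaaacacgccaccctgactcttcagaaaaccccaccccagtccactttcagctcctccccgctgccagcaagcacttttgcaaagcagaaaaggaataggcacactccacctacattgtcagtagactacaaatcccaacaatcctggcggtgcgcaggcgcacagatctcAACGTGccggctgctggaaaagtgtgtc
Nfil3, chr13:52981040-52981289, reverse strand: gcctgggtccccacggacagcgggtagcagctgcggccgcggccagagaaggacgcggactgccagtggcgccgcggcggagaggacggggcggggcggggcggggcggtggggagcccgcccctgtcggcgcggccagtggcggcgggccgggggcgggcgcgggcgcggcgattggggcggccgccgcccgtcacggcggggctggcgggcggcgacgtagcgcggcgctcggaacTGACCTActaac

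Fasting changed 1 of the 6 genes in WAT, 3 in LIV and 2 in SM: Npas2 in WAT, Npas2, Tef and Hlf in LIV, and Hlf and Nfil3 in SM. In WAT 1 rose (7.99% of all genes did) and 0 fell (7.75%), by limma, with 0 fallen genes at an unadjusted p under 0.05 and 0 without moderated variances. In LIV 2 rose (3.53%) and 1 fell (4.01%), and in SM 1 rose (7.80%) and 1 fell (5.78%). The median change of the 6 genes was 0.06 in WAT, -0.03 in LIV and -0.07 in SM, against 0.0053, 0.032 and -0.0040 over all genes. Of the 6 genes, 3 had a different change in WAT than in LIV, where 16.1% of genes did, 2 in WAT than in SM (15.1%) and 4 in SM than in LIV (15.3%).

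**Figure D2:**
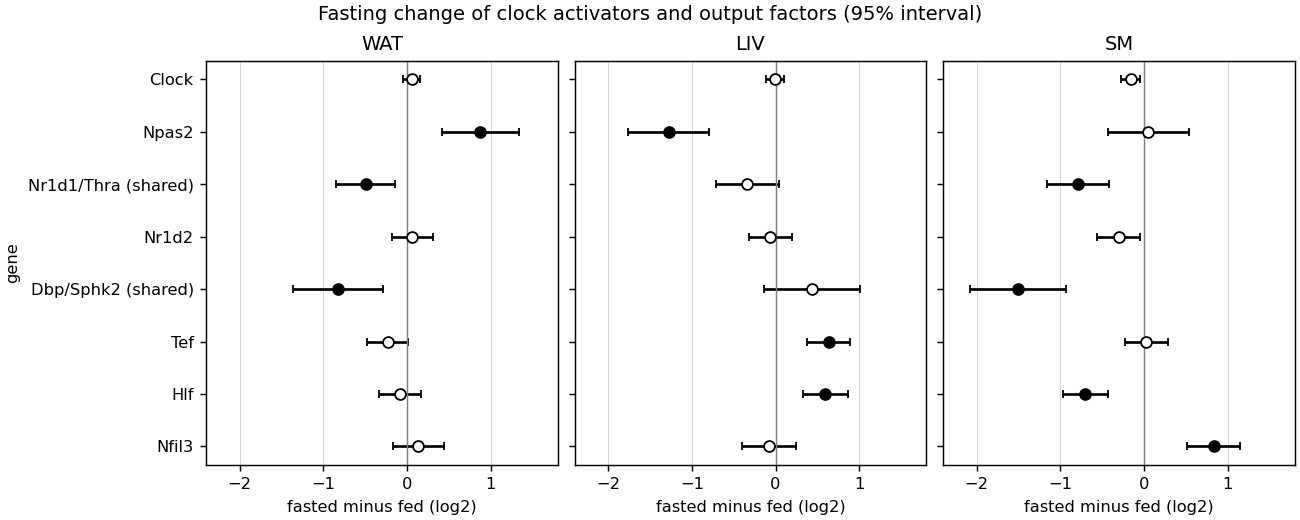
Fasted minus fed change (log2, x axis) with its 95% interval in WAT, LIV and SM for 6 genes and 2 shared probe sets. Filled points were called. Npas2 rises by 0.88 in WAT and falls by 1.28 in LIV, and Hlf rises by 0.59 in LIV and falls by 0.70 in SM.

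Npas2 turned in opposite directions in fat and liver. In fed WAT it read 7.44, 8.41, 8.02, 7.75 and 7.74, and in fasted WAT 8.93, 8.71, 8.49, 8.91 and 8.69. Each fasted array lay above each fed array, and the rise was 0.88 ± 0.22 (SE; adjusted p = 0.00365). In fed LIV it read 7.42, 8.47, 7.79 and 7.76, and in fasted LIV 7.25, 6.59, 6.33, 5.64 and 7.10. These groups did not overlap either, and the change was -1.28 ± 0.24 (adjusted p = 0.000366). The left-out fed LIV 4 read 7.16, within the fasted range, and with it the change was -1.14 (adjusted p = 0.000932). In SM the arrays ran from 6.43 to 6.89 fed and from 6.39 to 6.95 fasted, and the change was 0.05 (95% interval -0.44 to 0.54). The WAT change exceeded the LIV change by 2.15 (adjusted p = 2.25e-05), and the SM change exceeded the LIV change by 1.33 (adjusted p = 0.00588). That between WAT and SM, 0.82, missed the call (adjusted p = 0.0867). It passed when fed WAT 2 was left out (0.96, adjusted p = 0.0427) and when fasted LIV 4 was (adjusted p = 0.0351), an array that enters this value through the shared variance. Clock, by contrast, changed by 0.06 in WAT, -0.01 in LIV and -0.16 in SM. Its arrays ran from 8.95 to 9.15 in fed SM and from 8.79 to 8.98 in fasted SM, which overlap. The SM change stayed under 1.3-fold, with an adjusted p of 0.0281 that rose to between 0.0544 and 0.142 without fed SM 1, 2 or 5 or fasted SM 4.

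Among the repressors, Nr1d2 was not called in any tissue. In fed SM it read 9.53, 9.34, 9.44, 9.42 and 9.38 and in fasted SM 9.18, 9.12, 9.08 and 9.10. The groups did not overlap, yet the change of -0.30 was under 1.3-fold, with an adjusted p of 0.0886 (95% interval -0.57 to -0.04). In WAT it ran from 7.44 to 8.16 fed and from 7.67 to 8.41 fasted, in LIV from 8.52 to 8.71 and from 8.34 to 8.82, and its changes were 0.06 and -0.06. The Nr1d1/Thra probe set 10390691 read 10.88, 10.94, 10.71, 10.93 and 10.95 in fed SM and 10.14, 10.15, 9.94 and 10.14 in fasted SM. It fell by 0.79 there (adjusted p = 0.00187). In fed WAT it read 11.04, 10.61, 10.85, 11.17 and 11.19 and in fasted WAT 10.37, 10.77, 10.56, 10.55 and 10.14, which overlap. The change was -0.50 (adjusted p = 0.0324), a call that was lost without fed WAT 1, 4 or 5 or fasted WAT 1 or 5 (adjusted p from 0.0639 to 0.0974). In LIV it changed by -0.34 (adjusted p = 0.259). The other shared probe set, 10381006, changed by -0.13, 0.07 and -0.17 in WAT, LIV and SM and was not called.

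Among the members' probe sets, the one shared by Dbp and Sphk2 had the largest fall in SM. It read 8.18, 8.08, 8.13, 8.36 and 8.44 in fed SM and 6.94, 6.70, 6.48 and 6.80 in fasted SM. All fasted arrays lay more than 1 unit below all fed arrays, with a change of -1.50 ± 0.28 (adjusted p = 0.000168). With all 30 arrays it was -1.59. The probe set annotated to Sphk2 alone moved the other way in SM, by 0.34 (adjusted p = 0.00683, under 1.3-fold). In fed WAT the shared probe set read 6.75, 5.82, 6.99, 6.57 and 6.59 and in fasted WAT 5.23, 5.67, 5.92, 5.92 and 5.86, with fed WAT 2 inside the fasted range. The change was -0.83 ± 0.26 (adjusted p = 0.0187), a call lost without fed WAT 3 (adjusted p = 0.0585) or fasted WAT 1 (0.0656). The probe set annotated to Sphk2 alone moved the same way in WAT, by -0.30 (limma adjusted p = 0.00818, under 1.3-fold). In LIV the shared probe set changed by 0.43 (adjusted p = 0.358) and Sphk2 by 0.25 (0.0733). For the shared probe set the SM change minus the LIV change was -1.94 (adjusted p = 0.000802). The WAT change minus the LIV change was -1.26 (adjusted p = 0.0209) and was not called without fed LIV 2 (0.0689) or 3 (0.0568).

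Tef and Hlf, 2 of the PAR bZIP activators, rose in LIV. Tef read 7.55, 6.99, 7.31 and 7.44 in fed LIV and 7.96, 7.86, 8.11, 8.07 and 7.77 in fasted LIV, a rise of 0.64 ± 0.13 (adjusted p = 0.000712). The groups did not overlap, and fed LIV 4, left out, read 7.77, next to the lowest fasted array. Hlf read 8.49, 8.01, 8.13 and 8.32 in fed LIV and 8.72, 8.77, 8.98, 8.79 and 8.90 in fasted LIV, a rise of 0.59 ± 0.13 (adjusted p = 0.00237). In SM, Tef changed by 0.02, whereas Hlf read 7.36, 7.25, 7.11, 7.57 and 7.49 in fed and 6.52, 6.57, 6.72 and 6.81 in fasted mice, and fell by 0.70 (adjusted p = 0.000204). The left-out fasted SM 5 read 6.28, below both groups. In WAT, Tef changed by -0.23 (adjusted p = 0.170) and Hlf by -0.08. Without fed WAT 2, Tef changed by -0.35 (adjusted p = 0.0120), still under 1.3-fold. For Hlf each pair of tissues differed, by -0.68 for WAT minus LIV (adjusted p = 0.00848), 0.62 for WAT minus SM (0.0176) and -1.295 for SM minus LIV (1.21e-05). For Tef the WAT change minus the LIV change was -0.87 (adjusted p = 0.000564), and the SM change minus the LIV change -0.61 (0.0164), not called without fed LIV 2 (0.0529).

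Nfil3, the repressor of D-box genes, rose in SM. It read 6.95, 7.27, 7.09, 7.20 and 6.76 in fed SM and 8.02, 7.70, 7.77 and 8.05 in fasted SM. The groups did not overlap, and the rise was 0.83 ± 0.16 (adjusted p = 0.000204). The left-out fasted SM 5 read 7.78, within the fasted range, and with all 30 arrays the rise was 0.81. Its changes in WAT and LIV were 0.13 (95% interval -0.17 to 0.44) and -0.07 (-0.40 to 0.25). The left-out fed LIV 4 had the highest reading of all LIV arrays, 8.54. The SM change exceeded the LIV change by 0.91 (adjusted p = 0.00453) while the WAT change minus the SM change was -0.70 (0.0242), lost with all 30 arrays (0.0626) and without fed SM 5 or fasted SM 1 or 4 (0.0510 to 0.0577).

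Arrays of a group differed among themselves in these genes, and fed replicate 2 stood out in more than 1 tissue. Its Npas2 reading was above all other fed arrays used in WAT (8.41), LIV (8.47) and SM (6.89), and its Dbp/Sphk2 reading below all others in WAT (5.82), LIV (5.43) and SM (8.08). Nr1d2 and Tef were also below, and Nfil3 above, all others used in each tissue. The labels do not say whether a number marks the same mouse in all tissues. Without the fed arrays numbered 2, an alternative chosen after seeing the data, Npas2 changed by 1.01 in WAT and by -1.08 in LIV, and Nr1d2 by -0.32 in SM (adjusted p = 0.0409, still under 1.3-fold). Over the 28 arrays, with each array set against the mean of its group, Npas2 correlated with the Dbp/Sphk2 probe set at r = -0.75, with Tef at -0.68 and with Nfil3 at 0.73. Tef and Hlf correlated at 0.69, and the Dbp/Sphk2 and Nr1d1/Thra 10390691 probe sets at 0.71. These pairs are among the strongest and were chosen after their values were seen. Other pairs were weak, such as Hlf with Nfil3 (-0.25), Clock with Nfil3 (0.09) and the 2 Nr1d1/Thra probe sets (0.04). Fasted LIV 4 and 5 deviated by -0.94 and 0.52 for Npas2 and by 0.90 and -0.84 for the Dbp/Sphk2 probe set. Fed WAT 2 and fed LIV 2 deviated by 0.54 and 0.61 for Npas2 and by -0.72 and -0.73 for the Dbp/Sphk2 probe set. These correlations describe arrays that share a normalization and are given with no p. How far they rest on single arrays was not tested.

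**Figure D3:**
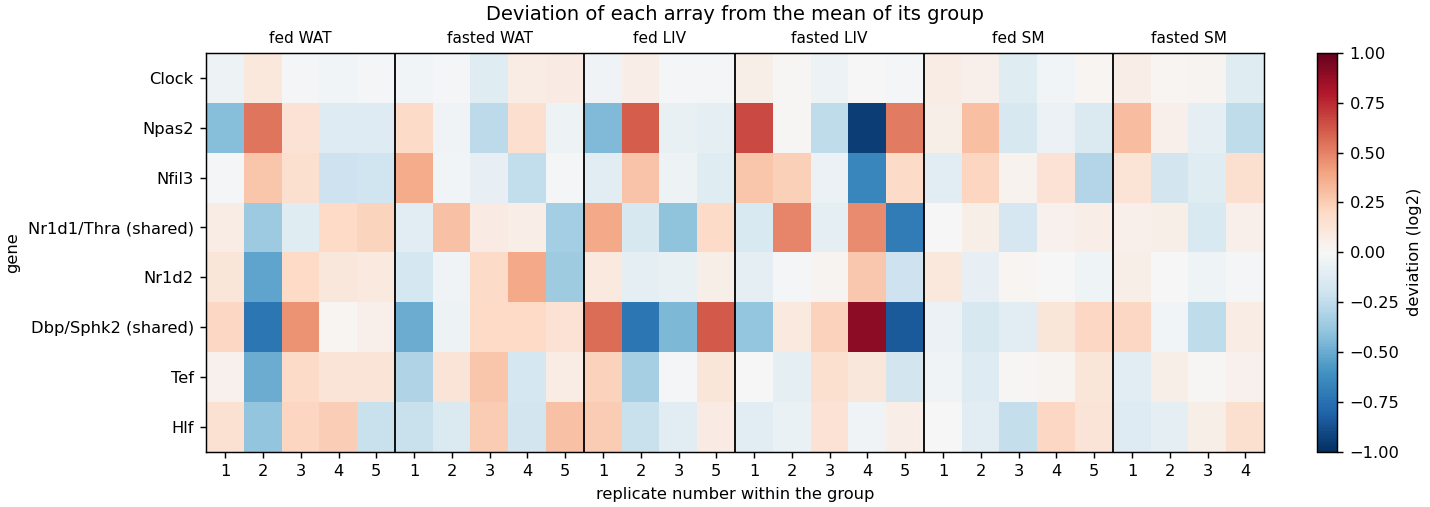
Deviation (log2, colour) of each of 28 arrays (columns, numbered by replicate within group) from its group mean for 8 rows of genes or shared probe sets. In fed WAT and fed LIV, replicate 2 has Npas2 and Nfil3 above the mean and the Dbp/Sphk2 probe set, Tef and Hlf below it.

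The genes most like each member were found over the 28 arrays after the mean of each tissue was removed. That mean lies midway between the fed and fasted means, so the fasting change stays in these r values. They cannot be compared with the correlations above, which set each array against its group mean. Nfil3 was nearest to Arntl (r = 0.85), then Rce1 and Vps18 (0.83 and 0.82), and the Dbp/Sphk2 probe set to Bhlhe41 (0.85), Lrrfip1 and P2ry1 (both 0.81). Tef was nearest to Hipk3, Per3 and Anapc4 (0.78, 0.76 and 0.75), and Hlf to 1810010H24Rik, Lrrfip1 and Gna12 (0.80, 0.79 and 0.78). For Npas2 these were Plxna2, Tubb2a and Apobec1 (0.83, 0.81 and 0.81), for Clock Slc25a36, Slc39a10 and Agpat5 (0.75, 0.71 and 0.70), and for Nr1d2 Ttc17, Dusp22 and Vegfa (0.64, 0.57 and 0.57). Of the Nr1d1/Thra probe sets, 10390691 was nearest to Zfp280b, Pomk and Tmem242 (0.75, 0.74 and 0.74), and 10381006 to Blcap, Pofut1 and Them6 (0.78, 0.76 and 0.75). The candidates were genes with a mean level of at least 6, 9000 for a gene with its own probe set and 9001 for a shared probe set.

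Of 24 other clock genes, 22 were measured. In WAT 7 rose and 2 fell (7.99% and 7.75% of all genes did), in LIV 5 rose and 1 fell (3.53% and 4.01%), and in SM 6 rose and 2 fell (7.80% and 5.78%). Their median change was 0.10, 0.15 and 0.07, against 0.0053, 0.032 and -0.0040 over all genes. Per1, a repressor of the Clock and Arntl pair, rose in all 3 tissues, by 1.33 in WAT, 1.66 in LIV and 1.41 in SM. Bhlhe40, an E-box repressor, fell in WAT (-1.06), in LIV (-0.50, chosen after its value was seen) and in SM (-1.61), and its paralog Bhlhe41 in WAT (-0.79) and SM (-1.21, chosen after its value was seen). Ciart, another repressor of the clock activators, and Usp2, a deubiquitinase, rose in LIV by 2.10 and 2.07. Cry2, the partner of the Per proteins, rose in SM by 1.24. Per2 and Noct, chosen after their values were seen, were called in LIV (0.71 and 0.91) and in WAT (0.77 and 0.51). In SM, Per2 was called too (0.54), whereas Noct changed by -0.32 and was not. Not all called genes of the list are named. This list and those that follow were written from knowledge of the clock, with earlier results of these data known. Their counts are therefore not a blind comparison with all genes.

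**Figure D4:**
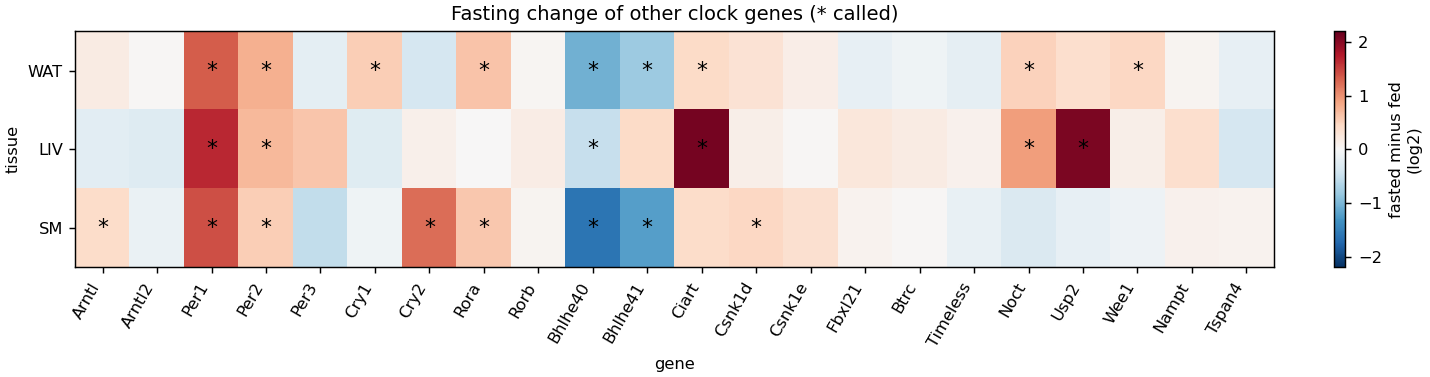
Fasting change (log2, colour) of 22 other clock genes in WAT, LIV and SM, with a star where called. Per1 is called higher in all 3 tissues and Bhlhe40 lower.

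Of 11 measured genes under REV-ERB and ROR elements that are not members, 3 rose and 1 fell in WAT (7.99% and 7.75% of all genes did), 2 rose and 4 fell in LIV (3.53% and 4.01%), and 2 rose and 2 fell in SM (7.80% and 5.78%). Their median change was 0.05, -0.23 and -0.11. In WAT, Gys2, the liver-type glycogen synthase, fell by 1.58, and Insig2 and the heme oxygenase gene Hmox1 rose by 0.69 and 0.57. Ppargc1a, a coactivator of mitochondrial genes, rose in LIV by 0.89 and fell in SM by 0.66. Lpl and Avpr1a fell in LIV, by 0.85 and 0.63, while in SM Hmox1 rose by 1.45 and Insig2 fell by 0.44. Arntl in SM (0.41) and Cry1 in WAT (0.55) rose too, chosen after their values were seen, as did Insig2 in LIV (0.57), where Hmox1 (-0.56) and Elovl3 (-0.50) fell.

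Of 14 measured targets of D-box factors that are not members, 6 rose and 0 fell in WAT (7.99% and 7.75% of all genes did), 4 rose and 0 fell in LIV (3.53% and 4.01%), and 4 rose and 1 fell in SM (7.80% and 5.78%). Of those that rose, 4 in WAT, 2 in LIV and 3 in SM were already counted among the other clock genes. By limma, 0 of them in WAT and 2 in LIV were lower at an unadjusted p under 0.05, and 0 were called lower without moderated variances. Median changes were 0.18, 0.25 and 0.12. Cyp2b10, a drug-metabolizing cytochrome, rose in WAT by 2.46, from 4.64 ± 0.42 (SD), under the array medians, to 7.10 ± 1.33. Per2 rose there by 0.77. In LIV, Fgf21, a hormone of the fasted liver, rose by 1.07, from 4.09 ± 0.09, under the array medians, to 5.16 ± 0.42. Cyp7a1, the rate-limiting enzyme of bile acid synthesis, rose there by 0.88. Rora, the receptor that competes with REV-ERB, and Per2 rose in SM by 0.59 and 0.54. Tspo fell in SM by 0.39 and Abcb1a rose by 0.40, both chosen after their values were seen.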

How the data were processed

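RNA of WAT, LIV and SM was hybridized to Affymetrix Mouse Gene 1.1 ST arrays. The authors made the deposited log2 values with RMA in Partek (background-corrected, quantile-normalized and summarised per probe set by median polish), and these were used as given. Quantile normalization sets the arrays to 1 distribution of probe values, so a change in total mRNA would not be seen. The annotation paired 21153 probe sets with 1 gene symbol, 1867 with several and 5795 with none listed. A gene took its singly annotated probe set of highest mean, which gave 18781 genes. The 6 group means were fitted to 28 arrays with limma 3.58.1 in R 4.3.3 (moderated variances, prior degrees of freedom 4.24). Fasting changes, their differences between tissues and fed levels between tissues were the contrasts, and p-values were adjusted over all probe sets. The mean correlation with the other arrays of the same group was 0.980 and 0.987 for the 2 arrays left out, and 0.991 to 0.996 for those used. No 2 arrays were identical. Precision is limited by 4 or 5 arrays per group.

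The text names all 8 members, from each list the 3 called genes of largest change in each tissue, and for each member the 3 genes most like it; other genes are said to have been chosen after their values were seen. Members and lists were chosen with earlier results of these data known. The fit was also run on simulated data with independent arrays and changes set in fasted SM only. That run does not cover shared mice, changes in WAT or LIV, or differences between tissues. Alternatives were other sets of arrays, each tissue alone, a replicate block, the mouse as a random block, unmoderated variances, equal array medians, cyclic loess, a filter on dim probe sets, the mean of a gene's probe sets, other thresholds and fits that each lacked 1 array. Promoter searches and figures used Python 3.11.15 with matplotlib 3.10.9.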

Additional observations from a re-analysis of the deposited data

Results flagged for a closer look

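Among 54 groups of 4 or 5 arrays tested for a sample far from the others, 5 were marked. Chance would mark about 5% of independent groups. The groups tested here share the same arrays across probe sets, so the 5 marks cannot be set against that rate. In fed WAT, replicate 2 had Clock at 9.84 (others 9.68 to 9.72), Nr1d2 at 7.44 (8.06 to 8.16) and Tef at 6.85 (7.38 to 7.54). Fed LIV replicate 2 had Nfil3 at 7.97 (7.56 to 7.63). Fasted SM replicate 3 had the Nr1d1/Thra probe set 10390691 at 9.94 (10.14 to 10.15).

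The fasting change differed between tissues in 11 comparisons by limma's contrast of the changes, those of the shared Dbp/Sphk2 probe set included. Over all genes, 16.1% were called for WAT against LIV, 15.1% for WAT against SM and 15.3% for SM against LIV. For Npas2 the WAT change minus the LIV change was 2.15 and the SM change minus the LIV change 1.33. For Hlf these were -0.68 and -1.295, and the WAT change minus the SM change was 0.62. Tef gave -0.87 for WAT minus LIV and -0.61 for SM minus LIV, and the Dbp/Sphk2 probe set -1.26 and -1.94. Nfil3 gave -0.70 for WAT minus SM and 0.91 for SM minus LIV. Not all of these calls held. The Nfil3 difference between WAT and SM was not called with all 30 arrays (limma adjusted p = 0.0626). Under the replicate block, the Dbp/Sphk2 probe set for WAT minus LIV, Tef for SM minus LIV and Hlf for WAT minus SM were not called.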

How the results depend on the processing

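The fasting calls of Npas2 in WAT and LIV, Tef in LIV, Hlf in LIV and SM, Nfil3 in SM, and the Dbp/Sphk2 and Nr1d1/Thra 10390691 probe sets in SM stood under every alternative run for them. The mean of a gene's probe sets could not be taken for shared probe sets, and each tissue alone and cyclic loess within tissues give no comparison between tissues. The number of genes whose change differed between WAT and SM, 2, became 1 with all 30 arrays, 1 with the replicate block and 0 at an adjusted p under 0.01, and ranged from 1 to 3 when each array was left out. Under the replicate block, 4 calls were lost, as given by adjusted p: the Nr1d1/Thra probe set 10390691 in WAT (0.0687), the Dbp/Sphk2 probe set for WAT against LIV (0.103), Tef for SM against LIV (0.0652) and Hlf for WAT against SM (0.0516). The replicate block joined fed and fasted arrays of the same number within a tissue. By the study's text these came from different mice, so the main fit did not treat them as pairs. Same-numbered fed and fasted arrays had deviations correlated from -0.25 to 0.16 over 13 pairs, 3 above 0.1. Arrays of the same number and diet in different tissues correlated from -0.12 to 0.18 over 26 pairs, 6 above 0.1. The tissues of a diet share mice, but whether a shared number marks the same mouse is not stated. The cause of the losses under the replicate block was not tested. Reversals were confined to uncalled values near 0, listed here by setting. With all 30 arrays, Clock in LIV gave 0.079, Nr1d2 in LIV 0.0036, Tef in SM -0.043, Clock for WAT minus LIV change -0.024 and Tef for fed WAT minus LIV -0.068. With fasted SM 1 left out in place of SM 5, Npas2 in SM gave -0.028 and Tef in SM -0.032. Under the replicate block, Nfil3 in LIV gave 0.089, and for fed WAT minus LIV Npas2 gave -0.10 and Tef -0.24, and 10381006 for fed WAT minus SM -0.0048. With equal array medians, 10381006 gave -0.031 for the WAT minus SM change and -0.027 for fed WAT minus SM, and Npas2 and Tef -0.12 and -0.11 for fed WAT minus LIV. Without the fed arrays numbered 2, Nr1d2 in WAT gave -0.071, Clock in LIV 0.012, Nfil3 in LIV 0.020 and Tef in SM -0.0067. With each array left out, values ran from -0.071 to 0.15 for Nr1d2 in WAT, -0.024 to 0.012 for Clock in LIV, -0.14 to 0.089 for Nfil3 in LIV, -0.050 to 0.14 for Npas2 in SM, -0.0067 to 0.062 for Tef in SM, -0.011 to 0.21 for Nr1d2 in WAT minus LIV change, -0.13 to 0.21 for Npas2 in fed WAT minus LIV and -0.091 to 0.14 for Tef there. Among single values, 15 lost and 3 gained a call under other settings, and 13 lost and 2 gained one with 1 array left out. Low signal limits the second probe set of Nr1d2.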
